A study of Mus musculus with 6 samples.

Results

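The BCL2 family decides whether a stressed cell opens the outer membrane of its mitochondria and dies. Anti-apoptotic proteins (BCL2, BCL-XL, MCL1) hold the pore-forming effectors BAX and BAK in check. BH3-only proteins sense damage, lost growth factors or stress and bind the anti-apoptotic proteins or the effectors through a short helix, the BH3 domain. In mammary tissue the same proteins govern cell death during involution, and in tumors they help set how cells survive detachment and treatment.

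The genes examined were 10 members chosen by symbol, namely 3 anti-apoptotic genes (Bcl2, Bcl2l1, Mcl1), 2 effectors (Bax, Bak1) and 5 BH3-only genes (Bid, Bad, Bcl2l11, Bbc3, Pmaip1). All 10 were found among the 22310 genes of the deposited table, through Ensembl identifiers and the GENCODE vM21 annotation of GRCm38. The 6 libraries were made from primary mammary tumor cells of MMTV-PyMT mice (FVB/N background, genotype labelled WT), in which polyoma middle T antigen is driven by the mouse mammary tumor virus promoter. All cells were plated for a day in medium with insulin, EGF and serum, depleted of lineage-positive cells and sorted as CD24+. Those that also carried CD90 are the metastasis-initiating cells (MICs) and those without it the non-MICs. Each population has 3 libraries, and the numbers 1 to 3 occur in both. The question put to these genes was whether MICs and non-MICs differ in transcripts for survival and death proteins.

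Reads recovered from the deposited values numbered between 31467281 and 51759769 per library. Same-numbered libraries departed together from their population means, with correlations of 0.573, 0.668 and 0.746 across genes for numbers 1, 2 and 3, and same-numbered libraries are read as pairs. Thy1, which encodes CD90, was higher in MICs by 5.32 on the log2 scale (limma with the replicate block, adjusted p = 5.31e-05; not passed without the block), and Cd24a differed by -0.01. Of 7 basal markers, Krt5, Acta2 and Myh11 were higher in MICs in the same fit. Krt14, Krt17 and Oxtr were mixed over pairs, each lower in MICs in pair 2 (log2 differences -0.90, -0.12 and -0.67). The summed level of the basal list ran from 23691 to 404281 scaled reads in MICs and from 23967 to 140300 in non-MICs. Of 6 fibroblast markers, 2 passed in edgeR with the block (Col1a2 and Dcn, both higher in MICs; basal Trp63 was also higher and luminal Elf5 lower in that fit), with sums of 636 to 1973 in MICs and 555 to 874 in non-MICs. The 6 immune markers in the table summed to between 204 and 1993, and Ptprc to at most 10.0 in any library. The part of these markers in the values of the BCL2 family was not tested, and fewer cells of a type cannot be told apart from less RNA per cell in such bulk samples.

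What joins the family is visible in the coding sequence. The coding stretches that hold the core of the BH3 helix are shown because this core is present in the BH3-only genes, the anti-apoptotic genes and the effectors. They were read from GENCODE vM21 transcripts (GRCm38), 36 bases each, 5′ to 3′ on the coding strand. Capitals mark the codon for leucine and, after 3 codons of any kind, a codon for glycine, alanine or serine followed by the codon for aspartate.
Bcl2: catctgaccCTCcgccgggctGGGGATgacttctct
Bcl2l1: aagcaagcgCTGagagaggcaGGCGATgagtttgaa
Mcl1: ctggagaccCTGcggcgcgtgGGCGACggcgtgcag
Bax: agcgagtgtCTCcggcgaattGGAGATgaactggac
Bak1: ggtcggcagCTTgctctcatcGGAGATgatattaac
Bid: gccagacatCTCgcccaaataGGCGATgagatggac
Bad: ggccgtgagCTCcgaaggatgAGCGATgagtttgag
Bcl2l11: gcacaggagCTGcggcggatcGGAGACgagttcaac
Bbc3: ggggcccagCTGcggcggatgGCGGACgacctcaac

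The core occurred once in the longest annotated coding sequence of each of these 9 genes. Its position ran from codon 63 of 192 in Bax to codon 194 of 331 in Mcl1. In Bad the residue before aspartate is coded by AGC (serine) and in Bbc3 by GCG (alanine), and in the other 7 it is glycine. The core is short, and 7326 of 21523 protein-coding genes with a complete coding sequence hold it at least once, so a match is a description and not a functional site by itself. Pmaip1 held the core at 2 positions, and its sequence is not shown.

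For none of the 10 genes did the difference between MICs and non-MICs pass the test. Without a block the test is against the spread between libraries, and with it against the spread between pair differences. In limma without a block, 0 of 10 passed an adjusted p of 0.05, as did 0% of all 22310 genes, and 0 had an unadjusted p under 0.05 (all genes, 1.44%). With the replicate block, 0 of 10 passed in limma (all genes, 0.13%), with adjusted p-values from 0.448 to 0.96, and 0 of 10 passed in edgeR (all genes, 1.41%), with adjusted p-values from 0.433 to 0.985. At an unadjusted p under 0.05 the blocked fits held 0 of 10 members, against 11.2% of all genes in limma and 11.7% in edgeR. For every member the values of the populations overlapped, whereas MICs lay wholly above non-MICs in 2.69% of genes and wholly below in 3.55%. The median log2 difference was -0.02 over the 10 members and -0.04 over all genes.

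The blocked limma fit gave a range for each difference. With the replicate block, the 95% intervals of the 10 log2 differences lay between -0.79 and 0.67, and each of them included 0. The narrowest range of plausible change was for Bax, whose MIC level was 0.957 of the non-MIC level with an interval of 0.755 to 1.21. All these intervals rest on 3 pairs and on variances that limma moderates with those of the other genes. An interval from the pairs of 1 gene alone could be wider. They concern RNA only.

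**Figure D1:**
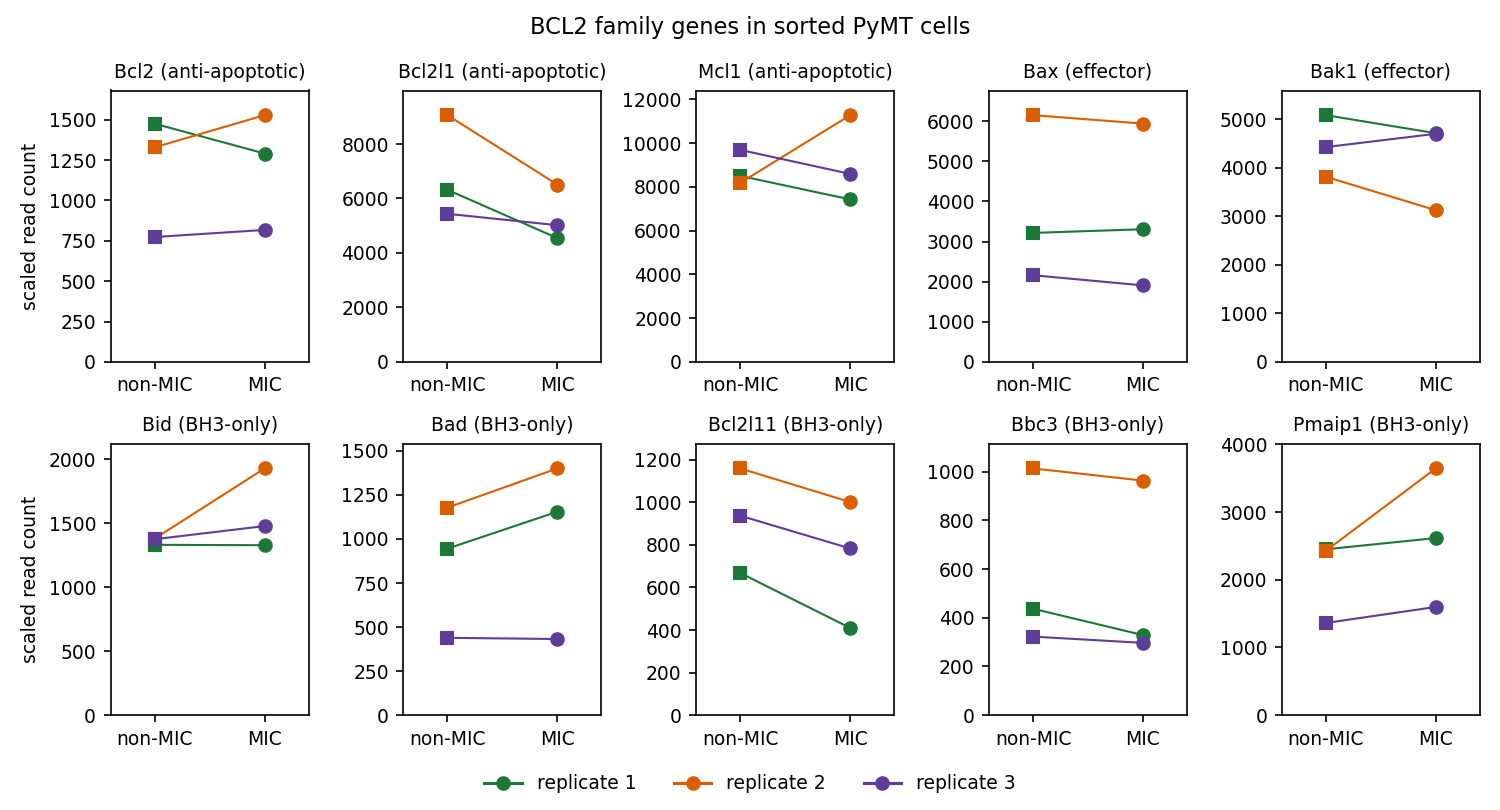
Scaled read count of each of the 10 BCL2 family genes (vertical axes start at 0) in non-MICs (squares) and MICs (circles), with lines joining libraries of the same replicate number. Colors mark the replicate number. Bax, Bbc3 and Bad differ between colors far more than between the ends of a line, and the lines of Bcl2l1, Bcl2l11 and Bbc3 all fall toward MICs.

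Among the anti-apoptotic genes, Bcl2l1 had the largest difference. It encodes BCL-XL, the main anti-apoptotic protein of many epithelial cells, and lies on chromosome 2 from 152780668 to 152831728. In the order of replicate numbers, here and for the genes that follow, its read counts scaled to a common library total were 4544, 6509 and 5019 for MICs, against 6319, 9059 and 5437 for non-MICs. The MIC value was the lower one in each pair, by 0.48, 0.48 and 0.12 on the log2 scale, although MIC replicate 2 was above non-MIC replicates 1 and 3. The log2 difference was -0.36, with a standard error of 0.25 without the block (limma adjusted p = 1) and of 0.17 with it (limma adjusted p = 0.448; 95% interval -0.71 to 0.0028).

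Mcl1 encodes a short-lived anti-apoptotic protein that is lost within hours when its synthesis stops, and lies on chromosome 3 from 95658788 to 95663176. Scaled counts of 7427, 11276 and 8592 were found in MICs, against 8501, 8182 and 9689 in non-MICs. MIC replicate 2 was the highest of the 6 and MIC replicate 1 the lowest, so that MICs enclosed the non-MICs. The populations differed by 0.03 on the log2 scale (95% interval with the block -0.37 to 0.43, limma adjusted p = 0.96).

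Bcl2, the founding member, lies on chromosome 1 from 106538178 to 106714274. The MICs had scaled counts of 1291, 1528 and 818, compared with 1475, 1329 and 774 for the non-MICs. Replicate 3 was the lowest in both populations, and the log2 difference between populations was 0.03 (95% interval with the block -0.34 to 0.40, limma adjusted p = 0.959).

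The effectors showed small population differences. Bax, which encodes a cytosolic effector that moves to mitochondria, lies on chromosome 7 from 45461697 to 45466898. MIC libraries held 3306, 5938 and 1907 scaled reads, and non-MIC libraries 3214, 6148 and 2160. The libraries grouped by number, with both replicates 2 at the top and both replicates 3 at the bottom, and the log2 difference between populations was -0.06 (95% interval with the block -0.41 to 0.28, limma adjusted p = 0.897).

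Bak1 encodes the effector that resides in the outer mitochondrial membrane and lies on chromosome 17 from 27019810 to 27029009. Scaled counts of 4711, 3125 and 4699 were found in MICs, against 5082, 3814 and 4425 in non-MICs. Its order over the numbers was not that of Bax, since both replicates 2 were the lowest and the replicates 1 the highest. Between populations the log2 difference was -0.10 (95% interval with the block -0.45 to 0.25, limma adjusted p = 0.829).

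The BH3-only genes differed in direction. Bcl2l11 encodes BIM, which responds to loss of growth factor signals and is induced by FOXO factors, and lies on chromosome 2 from 128126038 to 128162547. The MICs had scaled counts of 410, 1001 and 783, compared with 668, 1159 and 937 for the non-MICs. MICs were lower in each pair, by 0.70, 0.21 and 0.26, and the populations overlapped, with MIC replicate 2 above non-MIC replicates 1 and 3. The log2 difference was -0.39 (limma, standard error 0.38 and adjusted p = 1 without the block, 0.18 and 0.448 with it; blocked 95% interval -0.79 to 0.0040).

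Bbc3 encodes PUMA, a p53-induced activator of BAX and BAK, and lies on chromosome 7 from 16308393 to 16318205. MIC libraries held 329, 963 and 297 scaled reads, and non-MIC libraries 437, 1013 and 323. MICs were lower in each pair, by 0.41, 0.07 and 0.12, which is small beside the 3.19-fold span between replicate numbers. Between populations the log2 difference was -0.20 (95% interval with the block -0.61 to 0.21, limma adjusted p = 0.707).

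Pmaip1 encodes NOXA, which binds MCL1 above all, and lies on chromosome 18 from 66458533 to 66465565. Scaled counts of 2617, 3646 and 1599 were found in MICs, against 2451, 2428 and 1362 in non-MICs. Each pair had the higher value in MICs, by 0.09, 0.59 and 0.23, and replicate 3 was the lowest in both populations. The log2 difference was 0.30 (limma, standard error 0.37 and adjusted p = 1 without the block, 0.17 and 0.5 with it; blocked 95% interval -0.06 to 0.67).

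Bid, the BH3-only gene whose protein is cut by caspase-8 to link death receptors with mitochondria, lies on chromosome 6 from 120891930 to 120916853. The MICs had scaled counts of 1328, 1929 and 1478, compared with 1331, 1380 and 1375 for the non-MICs. The non-MICs lay close together, MIC replicates 2 and 3 stood above all of them, and MIC replicate 1 was the lowest of the 6. The populations differed by 0.19 on the log2 scale (95% interval with the block -0.17 to 0.56, limma adjusted p = 0.678). Exons of Bid share 628 bases with those of Bcl2l13 on the opposite strand, and the sources do not state whether strand was used in counting.

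Bad, the BH3-only gene whose protein is silenced by survival kinases, lies on chromosome 19 from 6941861 to 6951899. MIC libraries held 1155, 1400 and 432 scaled reads, and non-MIC libraries 945, 1178 and 439. The replicates 3 were the lowest and the replicates 2 the highest in each population, and the log2 difference was 0.17 (95% interval with the block -0.21 to 0.55, limma adjusted p = 0.732). Bad shares 524 exon bases with Gpr137 on the opposite strand. Exons are also shared by Bcl2 (558 bases with D630008O14Rik) and Bak1 (437 and 177 bases with 2 annotated genes named Ggnbp1), on the opposite strand, and by Bax (192 bases with Gm45808) on the same strand.

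**Figure D2:**
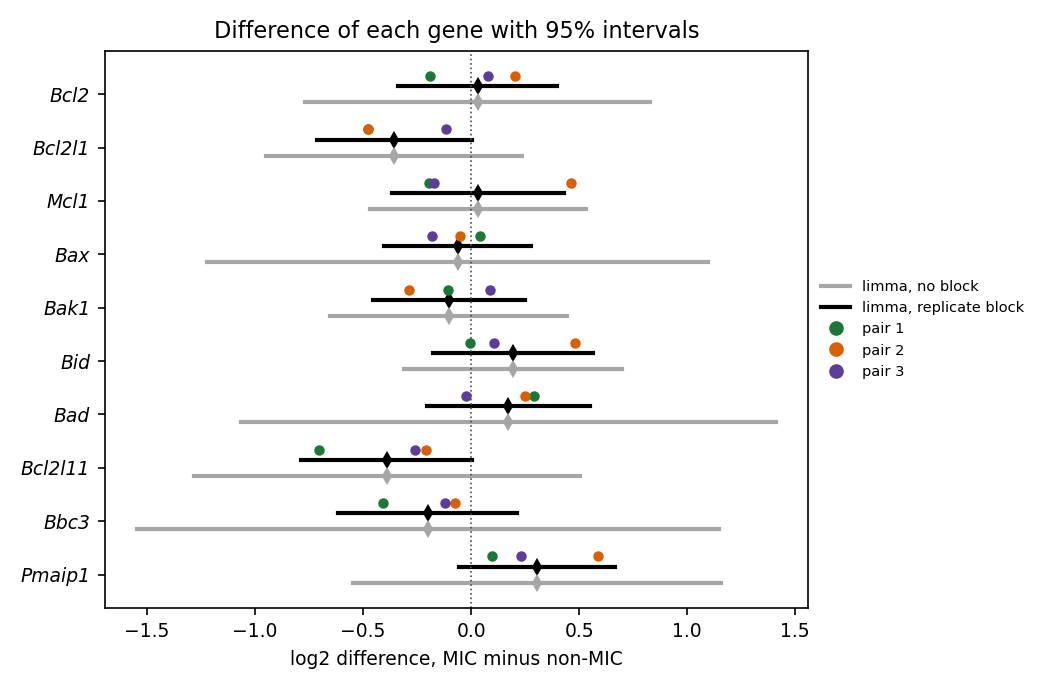
Log2 difference between MICs and non-MICs (horizontal axis) for each gene, with diamonds at the mean, gray bars for the 95% interval of limma without a block, black bars for that with the replicate block, and dots for the 3 pairs. All black bars include 0, those of Bcl2l1 and Bcl2l11 ending at 0.0028 and 0.0040.

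By pairs, 3 of the 10 genes were lower in MICs in every pair (Bcl2l1, Bcl2l11 and Bbc3; all genes, 18.8%; genes with a mean value of at least 100, as all members have, 28.5%). Pmaip1 was higher in every pair (all genes, 12.5%; mean value of at least 100, 13.1%), and the other 6 members were mixed. Thus 4 of 10 had 1 direction in every pair, as did 31.3% of all genes. Of the mean log2 differences 5 of 10 were above 0, against 40.8% of genes with a mean value of at least 100. When libraries were rescaled by TMM factors, the same 3 were lower (all genes, 16.4%), while Bid, Bad and Pmaip1 were higher (all genes, 14.7%). In Bid and Bad, the pair that changed sign had differed by -0.0032 and -0.02.

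Ratios of reads within a library do not depend on how libraries are scaled. The ratio of Pmaip1 to Mcl1 reads, for a BH3-only protein and its main partner, had log2 values of -1.50, -1.63 and -2.43 in MICs and of -1.79, -1.75 and -2.83 in non-MICs. Each pair had the higher ratio in MICs, by 0.29, 0.12 and 0.40, with a mean difference of 0.27 ± 0.14 (SD over 3 pairs). An exact two-sided sign-flip test gave p = 0.25, the smallest that 3 pairs allow, so that none of the 3 ratios examined could pass 0.05. The ratio of Bax to Bcl2 differed by 0.23, -0.25 and -0.26 in the pairs, and that of Bcl2l11 to Bcl2l1 by -0.23, 0.27 and -0.14, without a common direction. As Bcl2l11 and Bcl2l1 were both lower in MICs, their ratio had means of -2.95 ± 0.45 in MICs and -2.92 ± 0.36 in non-MICs (SD, n = 3).

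To compare genes with each other, recovered reads were divided by the total exon length of the gene. On this RPKM scale (reads relative to library total and exon length), Mcl1 had the highest mean level over the 6 libraries, 74.8, followed by Bax at 68.5, Bak1 at 51.2, Bcl2l1 at 38.3 and Pmaip1 at 24.6. Lower levels were found for Bid at 11.8, Bad at 10.3, Bbc3 at 7.54, Bcl2 at 3.75 and Bcl2l11 at 2.94. The order of the means was the same in MICs and non-MICs.

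Neighbors in this order often could not be separated. Mcl1 was above Bax in 4 of 6 libraries, Bax above Bak1 in 3, Bak1 above Bcl2l1 in 4, Bid above Bad in 3 and Bcl2 above Bcl2l11 in 4. Bcl2l1 was above Pmaip1, Pmaip1 above Bid, and Bbc3 above Bcl2, in all 6. Among the anti-apoptotic genes, the level of Bcl2 was therefore far under that of Mcl1 and Bcl2l1 in all 6 libraries, at 2.41 to 4.77 against 62.1 to 94.3 and 28.3 to 56.4. Divided by the length of the longest transcript instead, Bax stood first at 98.2 and Bcl2l1 rose to the third place at 68.4, and the last 6 places were unchanged.

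By role, the anti-apoptotic genes made up 39.3% ± 4.88 of the summed level per length in MICs and 41.3% ± 5.64 in non-MICs (SD, n = 3). The effectors made up 40.2% ± 2.74 and 40.9% ± 3.63, and the BH3-only genes 20.5% ± 3.15 and 17.8% ± 2.16 (SD, n = 3). The BH3-only share was higher in MICs in each pair (21.3% against 19.1%, 23.2% against 19.1% and 17.0% against 15.3%), and the populations overlapped. This share does not describe each of its genes. Pmaip1 had the highest level among them and was higher in MICs in every pair, whereas Bcl2l11 and Bbc3 were lower in every pair.

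**Figure D3:**
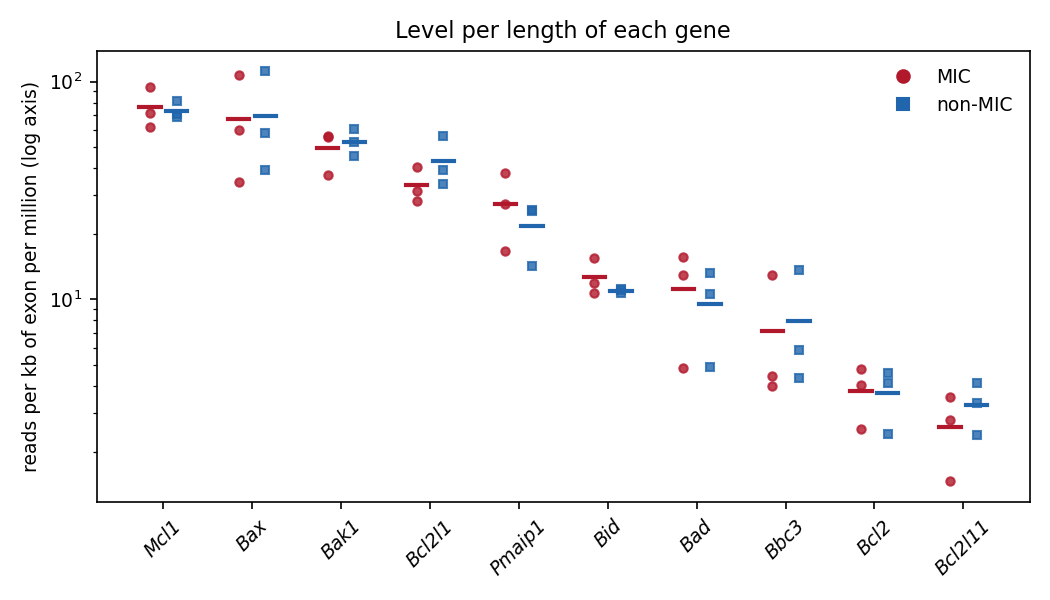
Level of each gene as RPKM over all exons (log axis), ordered by the mean over 6 libraries, with circles for MICs, squares for non-MICs and bars for population means. Mcl1, Bax, Bak1 and Bcl2l1 lie at the top, with means of 38.3 to 74.8, and Bcl2 and Bcl2l11 at the bottom, with means of 3.75 and 2.94.

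The libraries also differed by replicate number. For all 10 members, the span between the means of the 3 numbers was larger than the difference between populations, as it was for 85.3% of the 11173 genes with a mean value of at least 100, and a span over 3 means tends to exceed a difference of 2. The median span was 0.93 on the log2 scale for the members, 0.59 for those genes and 0.91 for all genes of the table. Bbc3 spanned 3.19-fold between numbers, Bax 2.98-fold, Bad 2.94-fold, Bcl2l11 2.06-fold and Pmaip1 2.02-fold, whereas Mcl1 spanned 1.21-fold and Bid 1.23-fold.

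Both libraries of number 2 lay above the other 4 for 5 of 10 members (Bcl2l1, Bax, Bad, Bcl2l11 and Bbc3; genes with a mean value of at least 100, 17.2%), but after TMM rescaling only Bax and Bbc3 did so (those genes, 12.4%). Both libraries of number 3 lay below the others for 5 members (Bcl2, Bax, Bad, Bbc3 and Pmaip1; those genes, 21.2%). The same 5 did so after TMM rescaling (those genes, 20.3%).

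Bax, Bbc3 and Pmaip1 are known transcriptional targets of p53, and a list of Trp53 and 11 target genes was read beside them. In 9 of these 12 genes both libraries of number 2 lay above the other 4 (genes with a mean value of at least 100, 17.2%). These were Mdm2, Cdkn1a, Ccng1, Zmat3, Sesn2, Trp53inp1, Phlda3, Eda2r and Aen. Trp53, Sesn1 and Perp did not meet this criterion, although on average Perp was 1.82-fold and Sesn1 1.22-fold higher in number 2. TMM rescaling left 8 of the 9, without Phlda3 (genes with a mean value of at least 100, 12.4%). Both libraries of number 3 lay below the other 4 for 6 of the 12 (those genes, 21.2%). These were Cdkn1a, Ccng1, Phlda3, Perp, Eda2r and Aen, and the same 6 did so after TMM rescaling (those genes, 20.3%). The list was read by replicate number after values had been seen. Eda2r, a member of the TNF receptor family, was 4.92-fold higher in the libraries of number 2 than in the other 4. Mdm2, the ubiquitin ligase that limits p53, was 3.04-fold higher in them. Cdkn1a, which encodes the cell cycle inhibitor p21, had scaled counts of 9630, 15545 and 5405 in MICs, against 9400, 16712 and 6478 in non-MICs, the order seen in Bax. In the same libraries Bbc3 was 2.88-fold and Bax 2.35-fold higher, while Pmaip1 was 1.54-fold higher, with non-MIC replicate 2 below MIC replicate 1. The transcript of Trp53 itself was at 0.83 of the level in the others.

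The libraries of number 2 also differed in cell markers. The summed luminal markers were 211672 and 277222 in MIC and non-MIC replicate 2 and between 424123 and 698538 in the other 4. The basal sums were likewise lowest in them, at 23691 and 23967 against 46873 to 404281. For 3 of 7 basal markers (Krt5, Krt14 and Krt17) both libraries of number 2 lay below the other 4. The share was 15.1% for genes with a mean value of at least 100. Trp63 did not follow, at 380 and 257 in MIC and non-MIC replicate 2 against 230 to 1124 in the others. The immune markers summed to 1993 and 1202 in the libraries of number 2 and to between 204 and 470 in the others. Lyz2 alone made up 1635 and 834 of those sums. Both libraries of number 2 lay above the other 4 for 3 of 6 immune markers, Lyz2, Itgam and Cd68 (genes with a mean value of at least 100, 17.2%). Cd68 was at 269 and 248 in them against 60.4 to 215, and Itgam reached at most 12.2 in any library. Csf1r was at 55.6 and 107 in them and between 92.1 and 112 in the others. Replicate number cannot be told apart here from any tumor, experiment, sequencing depth or handling that went with it. The part of these markers in the values of the BCL2 family was not tested.

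**Figure D4:**
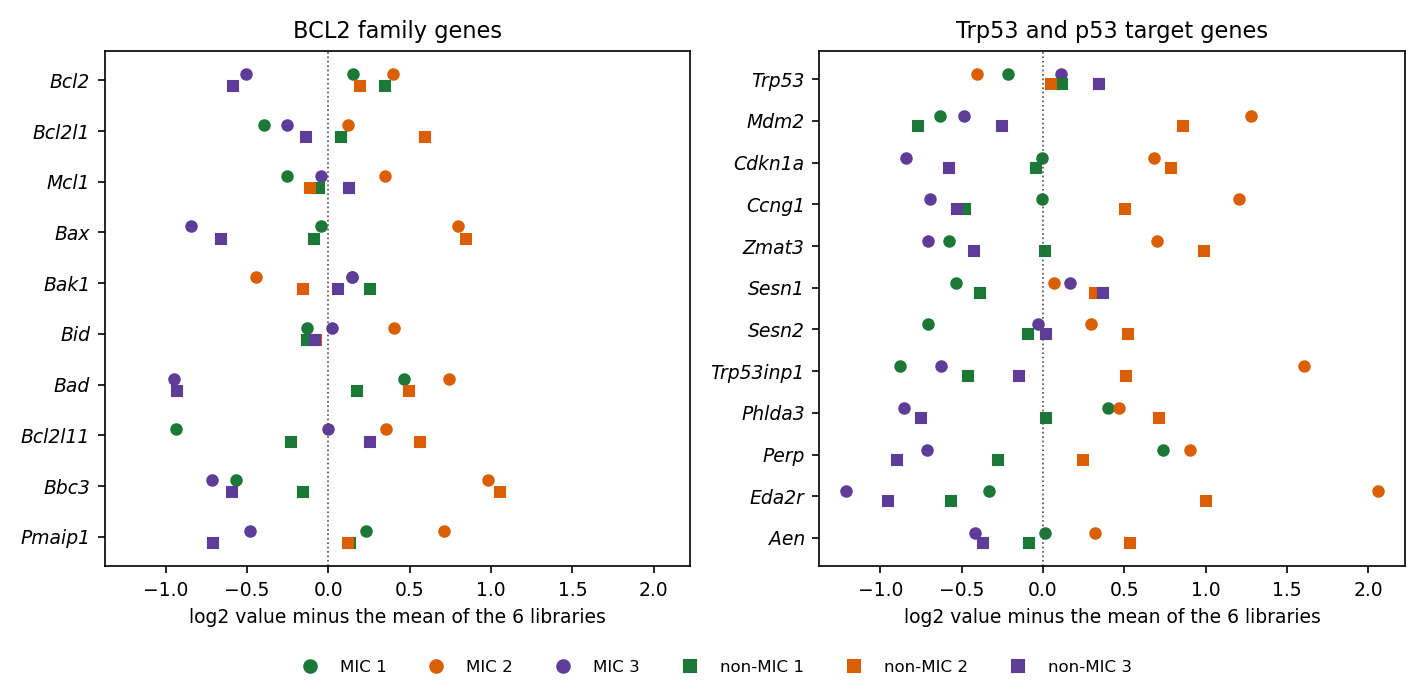
Log2 value of each gene minus its mean over the 6 libraries (horizontal axes), for the 10 BCL2 family genes on the left and for Trp53 and 11 p53 target genes on the right. Colors mark the replicate number, circles MICs and squares non-MICs. Both orange symbols (number 2) lie to the right of all others for 5 genes on the left and 9 on the right (genes with a mean value of at least 100, 17.2%).

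As a measure of likeness, the profile of each gene over the 6 libraries was centred on its mean and compared by the root mean square difference of log2 values among 11159 genes, for the 3 members that varied most. Nearest to Bax were Klhl26 (0.0655), Cdkn1a (0.067) and Rab7b (0.0921). Nearest to Bad were Hspb8, Ndufaf1 and Siva1 (0.0625 to 0.066), and nearest to Bbc3 were Ercc5, Rab3a and Vps37b (0.102 to 0.107). The median over all genes was 0.695 for Bax, 0.744 for Bad and 0.769 for Bbc3.

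The other genes of the pathway were taken from lists of 63 genes, of which 62 were in the table. None passed an adjusted p of 0.05 in limma without the block, in limma with it (smallest adjusted p = 0.417, for Perp) or in edgeR with it (smallest adjusted p = 0.0749, for Fas). At an unadjusted p under 0.05 in limma with the block there were 6 of 62 genes (Bnip3, Cycs, Perp, Zmat3, Fas and Foxo3), no larger a share than the 11.2% of all genes. MICs were higher in every pair for 5 of the 62 (all genes, 12.5%; mean value of at least 100, 13.1%) and lower for 16 (18.8% and 28.5%), and the median log2 difference was -0.05 against -0.04 over all genes. These shares are near those of the table as a whole.

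Of 14 other BCL2 family genes in the table, 1 was higher in every pair (all genes, 12.5%). In every pair 2 were lower, Bcl2l12 (-0.09) and Bcl2l13 (-0.25; all genes, 18.8%). The gene that was higher, Bcl2a1b, is one of several near-identical copies, whose reads may be shared, and had at most 6 reads in any library. Bok, an effector-like gene, ranged from 329 to 2935 scaled reads without following the population, and Bik was at 398 and 457 in the replicates 1 and between 26.4 and 107 in the others. Bnip3, a mitophagy receptor, had a log2 difference of 0.62 (pairs 1.04, 1.00 and -0.18; limma with the block, adjusted p = 0.423).

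In the mitochondrial release and apoptosome list (9 genes), Cycs, the gene for cytochrome c, was higher in every pair, by 0.50, 0.41 and 0.16, with an adjusted p of 0.434 in limma with the block. Aifm1 (-0.24) and Apaf1 (-0.15), the scaffold of the apoptosome, were lower in every pair. Among the caspases, Casp9, which the apoptosome activates, was lower in every pair (-0.28; limma with the block, adjusted p = 0.594). None of the 5 inhibitors of apoptosis had 1 direction in every pair (all genes, 31.3%).

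Among Trp53 and its targets, Perp, which encodes a membrane protein of epithelial junctions, was higher in MICs by 0.62 (pairs 1.02, 0.66 and 0.18), and Zmat3 (-0.39) and Trp53 (-0.34) were lower in every pair. Fas, the death receptor, had a log2 difference of 0.76 (pairs 1.14, 1.26 and -0.11). In the death receptor list Tnfrsf10b (0.16) was higher and Tradd (-0.21) and Ripk1 (-0.09) were lower in every pair. Among upstream regulators, Foxo3, whose protein can induce Bcl2l11, was lower in every pair, by 0.91, 0.32 and 0.15 (adjusted p = 0.422 in limma with the block), as was Myc (-0.31).

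Immediate early genes respond to handling such as dissociation and sorting. Of 11, 6 were lower in MICs in every pair (all genes, 18.8%; mean value of at least 100, 28.5%) and 0 higher, and 0 passed an adjusted p of 0.05 in limma with the block (smallest 0.416), with 6 at an unadjusted p under 0.05 (all genes, 11.2%). Their part in the values of the BCL2 family was not tested.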

How the data were processed

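RNA from sorted PyMT cells was made into TruSeq stranded mRNA libraries and sequenced for 75 cycles. The authors aligned reads to the mouse transcriptome (GRCm38/mm10) and counted them per gene. Their paper names Bowtie2 and samtools for this step, and the submitters' processing notes name STAR and HTSeq, without versions. The deposited signal holds gene counts scaled by the authors to 1 common total of about 35000000 per library, and every gene in the table is above 0 in at least 3 of 6 libraries. Dividing by the value of 1 read gave whole reads (within 0.01) for 99.99% to 100.0% of values, between 31467281 and 51759769 per library. Intervals on reads would cover counting error only: a member had at least 305 reads in a library, a counting error of at most 5.73%.

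Symbols, positions and lengths came from GENCODE vM21, which held 22161 of 22310 identifiers. The main test was limma 3.58.1 (R 4.3.3), fitted to log2(value + 1) without a block and with a mean-variance trend, and Benjamini-Hochberg adjustment at 0.05 over all genes. edgeR 4.0.16 (quasi-likelihood) and DESeq2 1.42.0 were run on recovered reads, and all 3 tools were repeated with a block for the replicate number. The numbers were taken as pairs because departures of same-numbered libraries correlated at 0.573 to 0.746. Those of different numbers correlated at -0.33 on average. This negative value follows from taking departures from each population mean and adds no separate evidence for the pairing. The labels do not say what a replicate is, and the paper's legend for these libraries counts independent experiments or tumors without saying which. The p-values are therefore taken against the spread between these libraries or, with the block, between the differences of these pairs. The fits were tested on simulated data.

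The 10 members and all lists were chosen with earlier results of these data known, so no p is adjusted over a list. Named were the members in every library, and from each list the genes passing a blocked fit and up to 3 with 1 direction in every pair and a mean value of at least 100. Bnip3, Fas, Bok, Bik and Bcl2a1b and the genes read by replicate number were chosen after their values were seen. Some genes that the naming rule selects are not reported here.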

Additional observations from a re-analysis of the deposited data

How the results depend on the processing

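No member passed an adjusted p of 0.05 under any of the 11 alternatives (a pseudocount of 0.1 or 10, genes at or above the median mean value only, quantile normalization, TMM rescaling, no trend, edgeR and DESeq2, and the replicate block in all 3 tools) or with any library left out. The count over all genes, 0, became 29 in limma with the replicate block, 1 in DESeq2, 133 in DESeq2 with the replicate block and 315 in edgeR with the replicate block, while it stayed at 0 when each library was left out. When 1 library was left out of the unblocked fit, 6 of 10 log2 differences changed sign at least once. The ranges were -0.26 to 0.29 for Bcl2, -0.13 to 0.17 for Mcl1, -0.48 to 0.34 for Bax, -0.21 to 0.093 for Bak1, -0.25 to 0.69 for Bad and -0.74 to 0.28 for Bbc3. The sign held for Bcl2l1 (-0.51 to -0.15), Bcl2l11 (-0.66 to -0.02), Bid (0.041 to 0.31) and Pmaip1 (0.024 to 0.62). Under the other alternatives 109 log2 differences of members kept their direction and 1 changed it, that of Bax under quantile normalization (0.013); the cause was not tested. Members higher in every pair numbered 3 with TMM rescaling (all genes, 14.7%), against 1 in the main setting (all genes, 12.5%). With quantile normalization they numbered 3, for which no share over all genes is given. Members with both libraries of number 2 above the others, examined after seeing the data, numbered 2 with TMM rescaling, against 5. The shares of genes with a mean value of at least 100 were 12.4% with TMM rescaling and 17.2% without it. The replicate block changed no call of a member. Levels per length moved by more than the spread between libraries for 5 of 10 genes when the longest transcript was used.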
